A study of Mus musculus with 12 samples.

Results

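The 39 genes described here encode Wnt signals, their receptors, their secreted inhibitors and a few downstream genes, and were taken by name from a list of 39 among the 21938 protein-coding genes on chromosomes 1 to 19, X and Y of the GENCODE M21 annotation of mm10. They comprise 19 Wnt ligands, 10 Frizzled receptors (Fzd1 to Fzd10), 7 secreted inhibitors (Sfrp1, Sfrp2, Sfrp4, Sfrp5, Dkk1, Dkk2 and Dkk3), the R-spondin Rspo3, and Axin2 and Lef1. The cells were C2C12, an established line of mouse myoblasts, which fuse into myotubes with many nuclei when serum is lowered. CUT&RUN, in which an antibody tethers a nuclease that releases the bound DNA for sequencing, was done with antibodies to H3K4me3, a histone mark of promoters, and to MBD2, a protein that binds methylated CpG and belongs to the NuRD complex. The groups were day 0 cells, day 1 cells in medium with 2% horse serum, and the day 5 myotubes and day 5 reserve cells, the unfused cells that light trypsin parts from the myotubes. No group carried a transgene or drug per the labels, and both day 5 fractions came from cells differentiated in the same medium. There was 1 library per antibody and cell state, so differences between libraries below have no replicate check and carry no p-value. The 4 IgG libraries were not analysed here.

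Wnt proteins are secreted lipid-modified signals that bind Frizzled receptors on the cell surface. In the canonical branch, Frizzled acts with the co-receptors LRP5 and LRP6 to spare β-catenin from a destruction complex built on Axin, and β-catenin then works with TCF and LEF proteins at target genes. In skeletal muscle, Wnt signals pattern the embryonic myotome, act on satellite cells during regeneration, and can steer myoblasts toward or away from fusion and other fates.

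A gene was counted as marked when a peak of a list overlapped the 1 kb on either side of any of its annotated transcript starts. Breadth is the number of base pairs under H3K4me3 peaks no more than 5 kb from the 5′ end of the gene. It measures how much of the promoter region was called, not transcription, which was not measured. A percentile gives the share of all H3K4me3-marked genes of the same library that had a smaller breadth. Fold enrichment and pileup (fragments over a peak's summit) are the authors' own values and only describe peaks within a list.

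MBD2 peaks reached the promoters of 4 members at day 0: Fzd2, Fzd7, Fzd5 and Wnt7b. The sequences under these summits are shown because they are the bases where MBD2 was read at these genes, with each CpG, the dinucleotide whose methylated form MBD2 recognises, in capitals. All are from mm10, are written 5′ to 3′ along the gene's strand and lie before the gene's annotated start, outside any annotated UTR.

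Fzd2, chr11:102603692-102603892, plus strand: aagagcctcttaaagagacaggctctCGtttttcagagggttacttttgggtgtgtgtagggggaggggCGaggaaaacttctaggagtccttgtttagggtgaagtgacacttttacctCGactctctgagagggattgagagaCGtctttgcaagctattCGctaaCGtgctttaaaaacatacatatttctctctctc
Fzd7, chr1:59481701-59481901, plus strand: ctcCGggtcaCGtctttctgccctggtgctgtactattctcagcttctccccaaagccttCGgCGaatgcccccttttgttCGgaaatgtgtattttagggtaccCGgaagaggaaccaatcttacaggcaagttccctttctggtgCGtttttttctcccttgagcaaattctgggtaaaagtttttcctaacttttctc
Fzd5, chr1:64737752-64737894, minus strand: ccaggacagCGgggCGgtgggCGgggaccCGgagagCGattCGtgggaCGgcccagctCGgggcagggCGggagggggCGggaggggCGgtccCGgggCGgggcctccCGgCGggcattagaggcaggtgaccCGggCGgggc
Wnt7b, chr15:85583487-85583665, minus strand: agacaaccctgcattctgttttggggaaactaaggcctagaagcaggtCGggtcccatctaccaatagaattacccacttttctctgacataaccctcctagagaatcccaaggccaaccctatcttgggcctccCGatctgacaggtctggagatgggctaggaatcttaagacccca

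These windows differed in CpG content. The 143 bases at Fzd5 held 17 CpG, the 201 bases at Fzd7 held 7 and those at Fzd2 held 6, while the 179 bases at Wnt7b held 2. Around the summits of all 2967 day 0 MBD2 peaks at promoters, the median was 7 CpG in 201 bases, against 2 for all 14948 day 0 peaks. Fzd2 and Fzd7 were therefore near the median of promoter peaks, and Wnt7b was at that of the whole list. Methylation itself was not measured.

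The next sequence is the summit of the MBD2 peak with the highest fold enrichment of those near the members, which lies between the divergent genes Wnt10b and Wnt1, beyond the 1 kb promoter limit of both.

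Wnt10b upstream, chr15:98780359-98780559, minus strand: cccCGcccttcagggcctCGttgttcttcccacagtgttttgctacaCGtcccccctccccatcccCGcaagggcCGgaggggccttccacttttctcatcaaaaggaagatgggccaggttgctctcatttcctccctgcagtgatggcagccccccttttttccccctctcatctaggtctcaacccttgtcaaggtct

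Further promoters are shown because H3K4me3 behaved differently at them. Wnt1 kept its mark in 3 of the 4 libraries, Sfrp2 had its widest mark in reserve cells, Wnt9a was wide in all 4, and Wnt3a, a neighbour of Wnt9a, carried none in any library. Each is the stretch from 250 to 11 bases before the RefSeq start (GRCm38.p6), with CpG in capitals.

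Wnt1, chr15:98789607-98789846, plus strand: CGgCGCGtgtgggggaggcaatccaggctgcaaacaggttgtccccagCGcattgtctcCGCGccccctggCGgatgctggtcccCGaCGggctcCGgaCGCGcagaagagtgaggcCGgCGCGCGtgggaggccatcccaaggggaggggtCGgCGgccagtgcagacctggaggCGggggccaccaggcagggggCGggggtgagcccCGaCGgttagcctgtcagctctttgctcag
Sfrp2, chr3:83766071-83766310, plus strand: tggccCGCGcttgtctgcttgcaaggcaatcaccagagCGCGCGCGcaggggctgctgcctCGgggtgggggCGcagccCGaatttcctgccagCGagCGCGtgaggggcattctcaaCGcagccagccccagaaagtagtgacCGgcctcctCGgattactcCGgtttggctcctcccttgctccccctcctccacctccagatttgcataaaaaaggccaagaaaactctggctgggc
Wnt9a, chr11:59306680-59306919, plus strand: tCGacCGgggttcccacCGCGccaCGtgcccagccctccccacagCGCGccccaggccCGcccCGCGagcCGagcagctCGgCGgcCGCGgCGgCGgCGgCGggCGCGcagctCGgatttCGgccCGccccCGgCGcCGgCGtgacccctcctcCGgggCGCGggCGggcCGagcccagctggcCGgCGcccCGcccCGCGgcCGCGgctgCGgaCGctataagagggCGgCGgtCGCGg
Wnt3a, chr11:59290762-59291001, minus strand: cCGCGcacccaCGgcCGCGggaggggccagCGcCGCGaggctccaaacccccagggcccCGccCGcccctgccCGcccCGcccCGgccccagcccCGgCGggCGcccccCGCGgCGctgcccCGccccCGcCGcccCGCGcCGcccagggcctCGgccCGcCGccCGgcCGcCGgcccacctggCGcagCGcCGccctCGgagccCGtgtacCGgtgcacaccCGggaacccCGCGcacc

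The marked and the unmarked neighbour were both dense in CpG, with 46 CpG in the 240 bases of Wnt9a and 40 in those of Wnt3a, against 22 for Wnt1 and 16 for Sfrp2. RefSeq promoters of 300 bases, which reach 50 bases past the start, were matched for 27 of the 39 members, with 33 promoters in all. TCF/LEF-type letters (CTTTGA or CTTTGT, each followed by A or T, on either strand) were found in 6 of the 33 (18.2%), at Wnt3, Wnt5b, Wnt11, Fzd7, Dkk1 and Lef1. Of all 32851 RefSeq promoters of that length, 16.9% held them. The E-box letters CAGCTG, which read the same on both strands, were in 3 of the 33 (9.09%), at Wnt9a, Fzd10 and Lef1, against 16.3% of all. These shares are descriptions of letters in a short window.

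Across the 8 lists, H3K4me3 peaks numbered 15920 to 26034 and MBD2 peaks 111 to 14948, with the most MBD2 peaks at day 0. The sources used here give no read totals. The lowest local background, computed from each list's pileup and fold enrichment, was 1.08 to 1.47 fragments per base for H3K4me3 and 0.286 to 0.947 for MBD2. The labelled states were checked by their markers. All 3 myoblast markers (Myod1, Myf5 and Des) were marked in all 4 libraries. Of 8 genes of differentiated muscle, 0 were marked at day 0, 8 at day 1, 8 in the myotubes and 7 in reserve cells, where Myh3 was not. Of 4 satellite and reserve cell markers all were marked at day 0, at day 1 and in reserve cells, and 3 in myotubes, where Cd34 was not. These calls did not set reserve cells apart from day 0 or day 1 cells. Pax7 was broader in reserve cells than in myotubes (8084 against 4636 bp). Spry1 (3167 against 5509 bp) and Sdc4 (4504 against 4864 bp) were narrower there. Of 10 markers of other cell types, 0 were marked in 3 libraries and Pecam1 was marked at day 1. In such bulk samples, fewer cells carrying a mark and less of the mark in each cell cannot be told apart.

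Most of the Wnt set was marked throughout. H3K4me3 lay at the promoters of 27 of the 39 members at day 0 (56.5% of all protein-coding genes), 27 at day 1 (56.2%), 26 in the myotubes (57.3%) and 25 in the reserve cells (54.8%). The mark was present in all 4 libraries at 25 members (53.6% of all genes) and in none at 12 (40.8%). Those without it were 9 ligands (Wnt2, Wnt3, Wnt3a, Wnt5a, Wnt7a, Wnt8a, Wnt8b, Wnt9b and Wnt16), 1 receptor (Fzd10) and 2 inhibitors (Sfrp5 and Dkk1). By role, 10 of 19 ligands were marked at day 0, day 1 and in the myotubes and 9 in reserve cells, while 9 of 10 Frizzled receptors were marked in every library. The inhibitors stood at 5, 5, 4 and 4 of 7 in the same order, and Axin2, Lef1 and Rspo3 were marked everywhere.

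**Figure D1:**
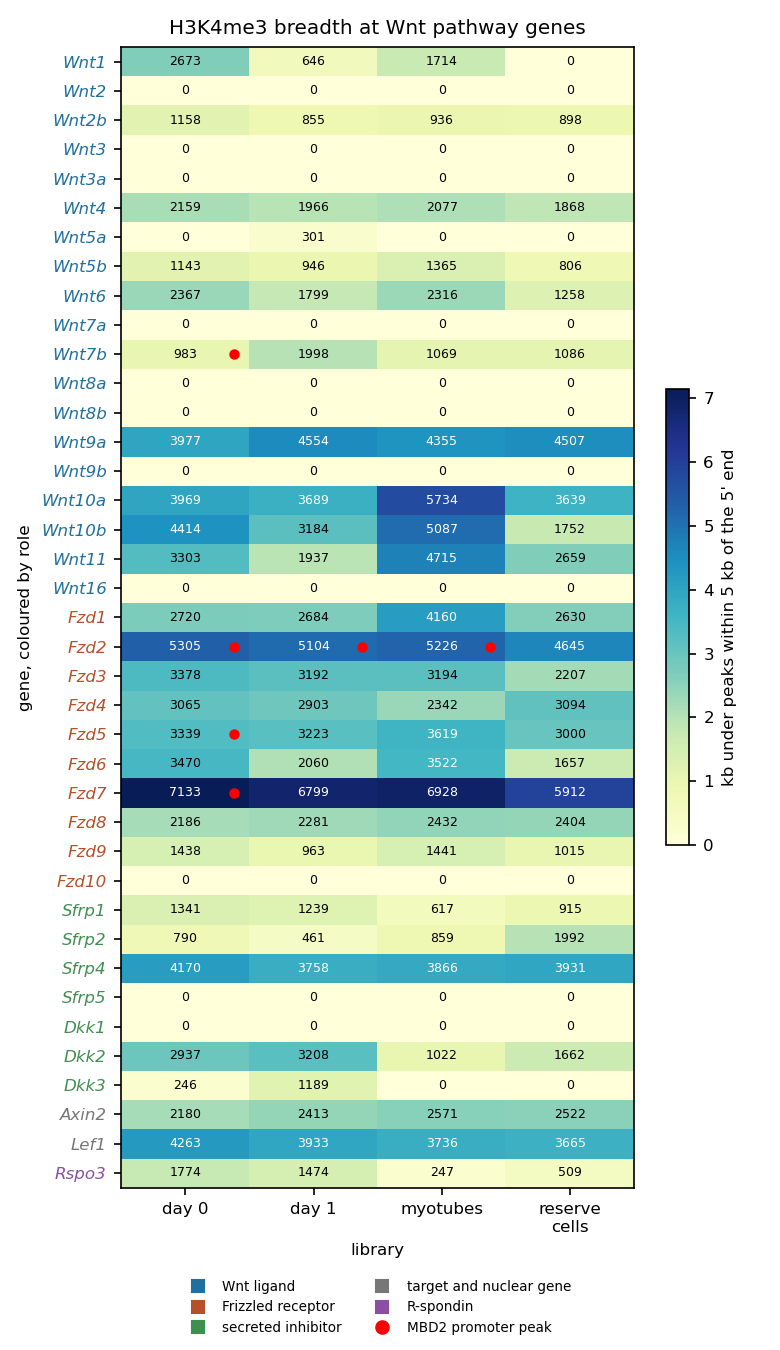
H3K4me3 breadth in bp within 5 kb of the 5′ end for each of the 39 members (down, coloured by role) in the 4 H3K4me3 libraries (across), with a red dot where the MBD2 list of that state had a promoter peak. Fzd7 is widest in all 4 libraries, 9 ligands have no promoter peak in any library, and red dots stand at 4 genes at day 0 and at Fzd2 alone at day 1 and in myotubes.

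Reserve cells had the shortest H3K4me3 list, and breadths were generally lower there. Over all protein-coding genes with at least 200 bp in both libraries, the median ratio of breadth was 0.907 from day 0 to day 1, 0.899 from day 0 to myotubes, 0.788 from day 0 to reserve cells and 0.885 from myotubes to reserve cells. Each member's ratio is to be read against these medians, which correspond to log2 shifts of -0.14, -0.15, -0.34 and -0.18. Among the 25 members marked in all 4 libraries, the medians were 0.924, 1.00, 0.860 and 0.899.

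The ligands held the member that lost its mark between the 2 day 5 fractions. Wnt1, a canonical ligand known for patterning the midbrain and, from the dorsal neural tube, the myotome, had a breadth of 2673 bp at day 0, 646 bp at day 1, 1714 bp in the myotubes and 0 bp in reserve cells. The day 0 library stood highest, and reserve cells alone had no peak. In its 3 libraries the summit lay 1239 to 1328 bp downstream of the 5′ end, and the day 1 peak began 920 bp downstream of it, inside the gene. Wnt1 (mm10 chromosome 15, 5′ end at 98789857, plus strand) was thus the 1 of 26 members marked in myotubes that was unmarked in reserve cells. Of all genes marked in myotubes, 5.59% lost the mark there. The Wnt1 myotube peak had pileup 13 and fold enrichment 5.78, below that list's median of 9.55. With lists of equal length this peak dropped out, and no member then lost the mark between these fractions. Wnt1 was also the 1 member at least 2-fold narrower from day 0 to day 1 (1.49% of genes were called). The ratio was 0.24, or 0.27 relative to the median of all genes.

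Its divergent neighbour Wnt10b, a canonical ligand known for holding mesenchymal cells and myoblasts back from the fat lineage, starts 11707 bp away. Wnt10b had 4414 bp at day 0, 3184 bp at day 1, 5087 bp in the myotubes and 1752 bp in reserve cells. Myotubes and day 0 were high and reserve cells low, at the 90.4 and 84.8 percentiles against the 31.4 percentile of their own libraries. Its day 0 and myotube peaks ran unbroken for 4414 and 4588 bp, from 2897 and 3018 bp upstream of the start to 1516 and 1569 bp downstream of it. In reserve cells they gave way to a 1533 bp peak at the start and a 219 bp remnant upstream. The ratio was 0.40 from day 0 to reserve cells (0.50 relative to the median of all genes) and 0.34 from myotubes to reserve cells (0.39 relative to the median). The upstream part of this domain was where MBD2 lay at day 0, in a 1016 bp peak with its summit 2309 bp before the Wnt10b start, pileup 19 and fold enrichment 14.7. No MBD2 peak lay there in the other 3 libraries, and H3K4me3 overlapped that place in all 4.

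**Figure D2:**
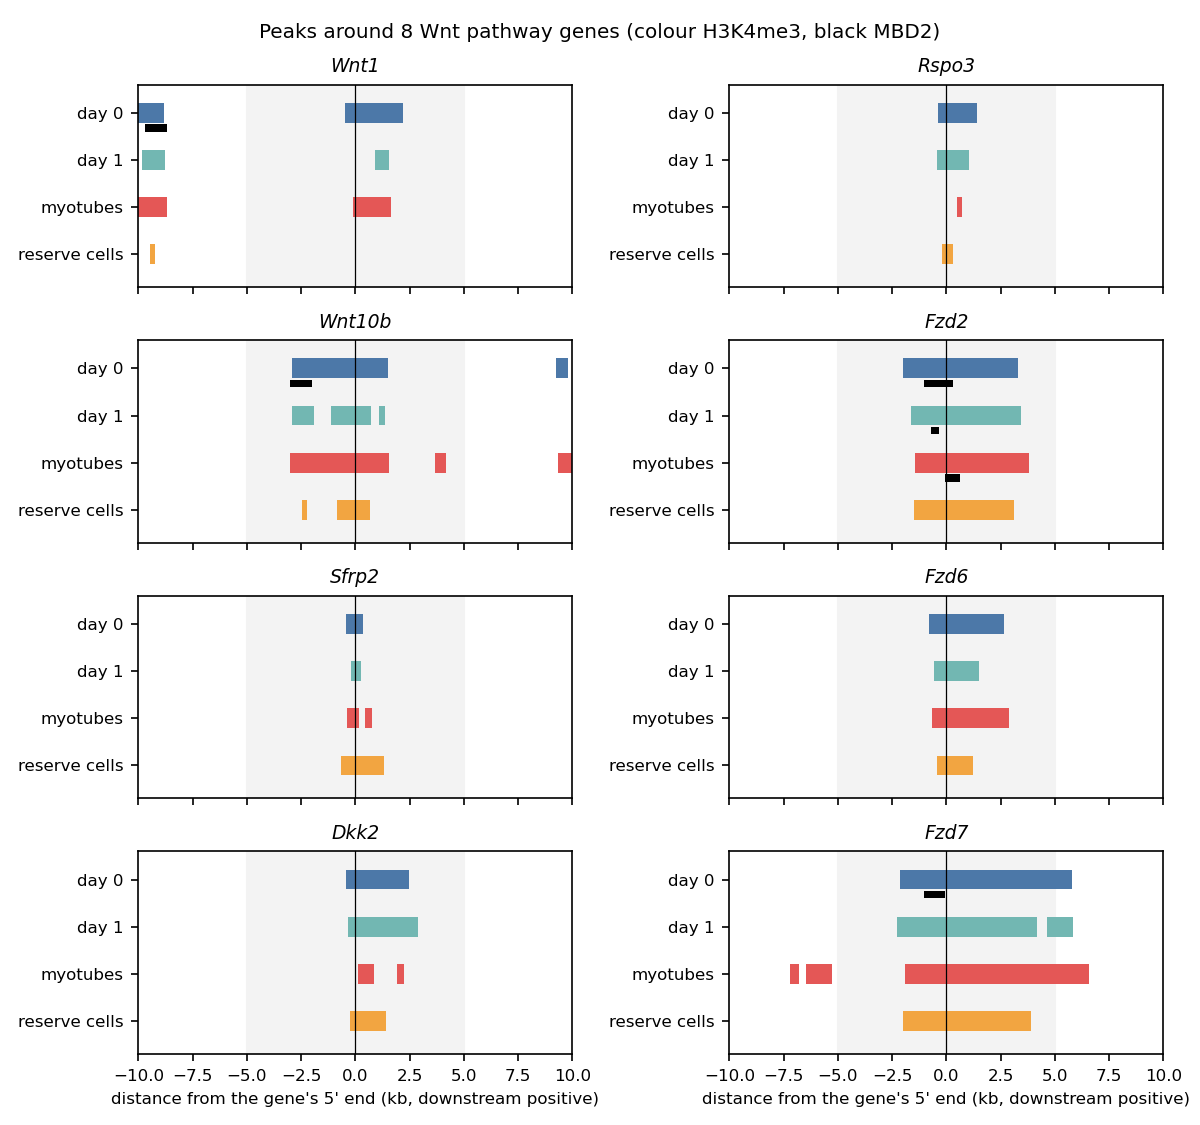
Peaks within 10 kb of the 5′ end of 8 members, with the distance from the 5′ end in kb across, downstream to the right, 1 line per library, H3K4me3 in colour and MBD2 in black, and the 5 kb window shaded. Wnt1 has no promoter peak in reserve cells, and the Wnt10b and Fzd6 peaks are short there. Rspo3 and Dkk2 are short in myotubes, and Sfrp2 is longest in reserve cells. The day 0 MBD2 bar at Fzd2 crosses the start, and that at Fzd7 lies before it.

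Wnt10a and Wnt6, tandem genes on chromosome 1 with starts 19624 bp apart, were both marked throughout. Wnt10a, known for tooth and hair development, had 3969, 3689, 5734 and 3639 bp at day 0, day 1, in the myotubes and in reserve cells. Its breadth in myotubes stood above the other 3 libraries and was at the 94.5 percentile. The peak at its start was 5083 bp long there against 3969 bp at day 0, and weaker separate peaks downstream made up the rest. Wnt6 had 2367, 1799, 2316 and 1258 bp in the same order. Reserve cells were lowest for Wnt6, with ratios of 0.53 from day 0 and 0.54 from myotubes, just short of the 2-fold limit. There its peak began 35 bp past the start and had nothing upstream, whereas 591 bp lay upstream at day 0.

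Wnt11, a ligand of the β-catenin-independent branch known for cell movements in the embryo, had 3303 bp at day 0, 1937 bp at day 1, 4715 bp in the myotubes and 2659 bp in reserve cells. Myotubes were highest, with a single peak of 4715 bp. In day 0 cells the same stretch was read as 2 peaks of 2300 and 1003 bp, and in reserve cells as peaks of 2340 and 319 bp. Its ratio from myotubes to reserve cells was 0.56.

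Wnt9a, known for joint formation, was the steadiest of the wide ligands, with 3977, 4554, 4355 and 4507 bp at day 0, day 1, in the myotubes and in reserve cells. It was the ligand with the greatest breadth at day 1 and in reserve cells, where it was at the 93.8 percentile, and its ratio from day 0 to reserve cells was 1.13, or 1.44 relative to the median of all genes. Its divergent partner Wnt3a, the ligand most used to switch on the canonical pathway in culture, starts 16176 bp away and had no breadth in any library. A similar split did not hold at Wnt3 and Wnt9b, 24329 bp apart on chromosome 11, where both genes were unmarked.

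Narrow marks covered the remaining ligands. Wnt4, a ligand with roles in kidney, gonad and muscle development, had 2159, 1966, 2077 and 1868 bp in the same order of libraries. Wnt2b, related to Wnt2, had 1158, 855, 936 and 898 bp. Wnt5b, a β-catenin-independent ligand, had 1143, 946, 1365 and 806 bp. Wnt4 varied least of these, and Wnt5b was highest in the myotubes and lowest in reserve cells.

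Wnt7b, a ligand known from lung and kidney development, had 983 bp at day 0, 1998 bp at day 1, 1069 bp in the myotubes and 1086 bp in reserve cells. Day 1 stood apart from the other 3, and the ratio of 2.03 made it 1 of 2 members at least 2-fold broader from day 0 to day 1, with Dkk3 (0.447% of genes). In no library did its H3K4me3 reach the gene's 5′ end, since the nearest edge was 374 to 763 bp downstream. At day 1 the gain included a second peak, of which the part inside the 5 kb window counted.

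Wnt5a, the main ligand of the β-catenin-independent branch, was unmarked by the 1 kb rule, but a 301 bp peak with its summit 1332 bp downstream of the 5′ end was called at day 1. The other 8 unmarked ligands had 0 bp within 5 kb in every library. They included Wnt7a, known to drive the symmetric division of satellite cells through Fzd7.

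Of the 9 ligands marked in all 4 libraries, 7 were narrower in reserve cells than in myotubes, with a median ratio of 0.635, and 5 were narrower relative to the median of all genes tested. Over all genes marked in every library, that median was 0.887, and 75.0% of genes were narrower. From day 0 to myotubes the ligands' median ratio was 1.10 and 6 of 9 were broader (8 of 9 relative to the median). Of the Frizzled receptors 5 of 9 were broader (also 8 of 9 relative to the median). Over all such genes 69.2% were narrower.

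The Frizzled receptors, 7-pass membrane proteins whose outer cysteine-rich domain binds Wnts, were wider than marked genes as a whole. Their median breadth among marked members was 3339, 2903, 3522 and 2630 bp at day 0, day 1, in the myotubes and in reserve cells, against 2799, 2529, 2503 and 2215 bp for marked genes as a whole. Fzd7, the satellite cell receptor for Wnt7a, had 7133, 6799, 6928 and 5912 bp. It was the widest member in every library and sat at the 98.4 to 98.9 percentiles. The myotube peak was 8487 bp long and the reserve cell peak 5912 bp, and the downstream part within the window fell from 5001 bp to 3922 bp. Fzd2, a receptor in both Wnt branches, had 5305, 5104, 5226 and 4645 bp. It sat at the 91.5 to 94.6 percentiles, and its ratio to day 0 was 0.88 in reserve cells, or 1.11 relative to the median.

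Both genes have 1 annotated exon, as does Fzd1, also a canonical receptor. Fzd1 had 2720, 2684, 4160 and 2630 bp, so myotubes were high and the other 3 libraries lay close together. The ratio from day 0 to myotubes was 1.53. The myotube breadth included a separate 593 bp peak with pileup 11. The Fzd1 peak at the start was 3567 bp long in myotubes against 2720 bp at day 0. Fzd5, a receptor for Wnt5a and canonical ligands, had 3339, 3223, 3619 and 3000 bp. Fzd8, a canonical receptor, had 2186, 2281, 2432 and 2404 bp and was lowest at day 0. Its rank rose from the 29.8 percentile at day 0 to the 56.7 percentile in reserve cells.

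Fzd4, which also binds the non-Wnt ligand Norrin, had 3065, 2903, 2342 and 3094 bp. Myotubes were the low library here, and the ratio from myotubes to reserve cells was 1.32, the 1 Frizzled that was broader in reserve cells. Fzd3, a receptor of axon guidance and planar polarity, had 3378, 3192, 3194 and 2207 bp. Part of this breadth was a separate peak of 529 to 1261 bp next to the start of Fbxo16, 4155 bp away, and the peak at Fzd3 itself was 2156, 1989, 1933 and 1678 bp long. Fzd9 had 1438, 963, 1441 and 1015 bp. Day 0 and myotubes were high for Fzd9, and day 1 and reserve cells low.

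Fzd6, the receptor of hair and skin polarity, varied most among the Frizzleds, with 3470 bp at day 0, 2060 bp at day 1, 3522 bp in the myotubes and 1657 bp in reserve cells. Day 0 and myotubes stood together, and day 1 and reserve cells were both lower. Its peak was shorter on both sides of the start in reserve cells than at day 0. The upstream part fell from 812 to 432 bp and the downstream part from 2658 to 1225 bp. The ratio was 0.48 from day 0 to reserve cells and 0.47 from myotubes to reserve cells. Relative to the median of all genes these ratios were 0.61 and 0.53, past the 2-fold limit in neither. A divergent noncoding RNA, Gm26704, starts 151 bp away, so the peak covers both starts. Fzd10 had 0 bp in every library.

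**Figure D3:**
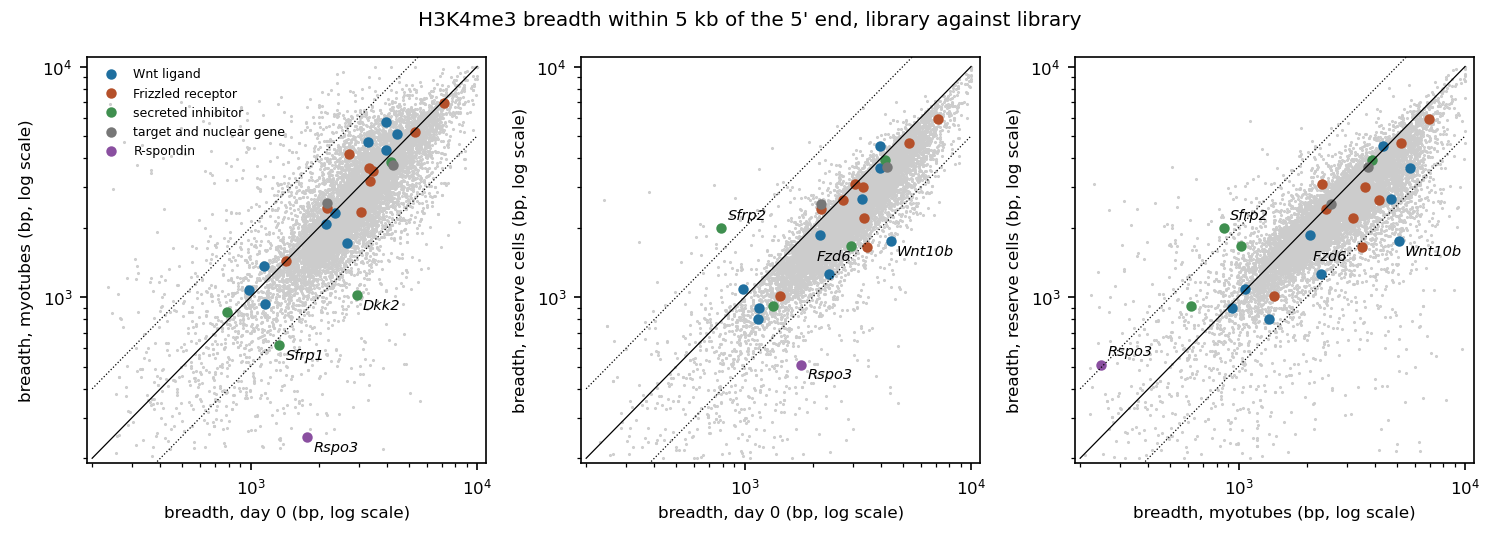
H3K4me3 breadth (bp, log scales) in 1 library against another for day 0 and myotubes, day 0 and reserve cells, and myotubes and reserve cells, with members coloured by role over all protein-coding genes (grey) and with equal breadth (solid) and 2-fold (dotted) lines. Named members lie on or past a dotted line, with Sfrp2 above it in both plots against reserve cells and Wnt10b and Fzd6 below it.

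The inhibitors marked throughout were broader, not narrower, in reserve cells than in myotubes, though Sfrp4 hardly so, with a ratio of 1.02. Of the 4 marked in all libraries (Sfrp1, Sfrp2, Sfrp4 and Dkk2), 4 were broader in reserve cells than in myotubes. Their median ratio was 1.55. Narrower were 7 of 9 ligands and 8 of 9 Frizzleds, beside 75.0% of all genes marked in every library. Relative to the median of all genes, 5 ligands and 6 Frizzleds were narrower and the same 4 inhibitors broader. By that measure 4 of 9 ligands, 3 of 9 Frizzleds, Axin2, Lef1 and Rspo3 were broader too. The myotube promoter peaks of Sfrp1 and Dkk2 had pileups of only 8 and 12. Among other secreted antagonists marked throughout, Frzb (650 to 462 bp), Wif1 (2597 to 403 bp) and Kremen1 (4645 to 2783 bp) were narrower. Apcdd1 (1014 to 1404 bp) and Trabd2b (1307 to 2139 bp) were broader, all from myotubes to reserve cells. The difference between roles was not tested, since each rests on 1 library per state.

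Sfrp2, a secreted Frizzled-like decoy that binds Wnts, had 790 bp at day 0, 461 bp at day 1, 859 bp in the myotubes and 1992 bp in reserve cells. Reserve cells stood above all others, and the rank of Sfrp2 was at the 41.5 percentile there against the 5.0 to 8.6 percentiles elsewhere. The reserve cell peak ran from 670 bp before to 1321 bp after the start. The ratio was 2.52 from day 0 to reserve cells (3.20 relative to the median of all genes), and Sfrp2 was the 1 member called broader there (0.317% of genes). From myotubes to reserve cells it was 2.32, or 2.62 relative to the median, where Sfrp2 and Rspo3 were called broader (1.12% of genes).

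Sfrp1, another Frizzled-like decoy, had 1341, 1239, 617 and 915 bp at day 0, day 1, in the myotubes and in reserve cells. Myotubes were lowest, with a ratio of 0.46 from day 0, or 0.51 relative to the median of all genes. Sfrp4, of the same family, had 4170, 3758, 3866 and 3931 bp, of which about as much lay at the neighbouring gene Epdr1, 3177 bp away, as at Sfrp4 itself. The peak at the Sfrp4 start was 2058, 2008, 1978 and 2182 bp long, which differed little between libraries.

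Dkk2, which binds the LRP co-receptors, had 2937 bp at day 0, 3208 bp at day 1, 1022 bp in the myotubes and 1662 bp in reserve cells. The day 0 and day 1 libraries were wide and both day 5 libraries narrow. In myotubes the mark was broken into peaks of 714 and 308 bp and began 139 bp past the start. The ratio from day 0 to myotubes was 0.35, or 0.39 relative to the median. With Sfrp1 and Rspo3, Dkk2 made up the 3 of 26 members at least 2-fold narrower from day 0 to myotubes (4.36% of genes), and no member was at least 2-fold broader (2.52%). None of the 3 was called narrower with lists of equal length, where their myotube peaks dropped out, nor with the stronger 50% of each list.

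Dkk3, a divergent member of the Dickkopf family, had 246 bp at day 0, 1189 bp at day 1 and 0 bp in both day 5 libraries. It was marked only weakly where it was marked, with authors' fold enrichments of 3.64 and 3.66. Dkk3 was the 1 member that lost its mark from day 0 to myotubes (2.77% of marked genes), and Dkk3 and Wnt1 were the 2 that lost it from day 0 to reserve cells (4.12%). No member lost it from day 0 to day 1 (1.86%). No member gained the mark in any comparison, where 1.72% of unmarked genes gained it from day 0 to day 1, 5.33% from day 0 to myotubes, 1.38% from day 0 to reserve cells and 1.70% from myotubes to reserve cells. With the tested members numbering 12 or 13, a count of 0 is near such shares. The balance of gains and losses turned with the peaks kept. With lists cut to equal length, 5 members gained and 0 lost the mark from myotubes to reserve cells, and with the stronger 50% of each list 7 gained and 0 lost it from day 0 to myotubes.

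Rspo3, a secreted protein that strengthens Wnt signals by protecting Frizzleds from breakdown, had 1774 bp at day 0, 1474 bp at day 1, 247 bp in the myotubes and 509 bp in reserve cells. The day 0 and day 1 libraries were high and both day 5 libraries low. The myotube peak lay wholly downstream, from 490 to 736 bp past the 5′ end, with pileup 7, whereas the day 0 peak covered the start with pileup 39. Its ratio was 0.14 from day 0 to myotubes and 0.29 to reserve cells, or 0.15 and 0.36 relative to the medians, the lowest of the members tested in both comparisons. With Wnt10b and Fzd6 it made up the 3 of 25 members at least 2-fold narrower from day 0 to reserve cells (4.56% of genes). From myotubes to reserve cells Wnt10b and Fzd6 were called narrower (6.21% of genes).

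Of the downstream genes, Lef1 moved little, while Axin2 was broader in each later library than at day 0. Axin2, a destruction complex scaffold that canonical signals themselves switch on, had 2180, 2413, 2571 and 2522 bp. Its ratio from day 0 to reserve cells was 1.16, or 1.47 relative to the median of all genes, and its rank went from the 29.7 percentile at day 0 to the 60.7 percentile in reserve cells. Lef1, a DNA-binding partner of β-catenin, had 4263, 3933, 3736 and 3665 bp, which followed the median of all genes within a ratio of 0.97 to 1.11.

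MBD2 was rare at the members outside day 0. At day 0 its promoter peaks lay at 4 of the 39 members (11.1% of all protein-coding genes), or 4 of the 27 with H3K4me3 at day 0 (19.0% of such genes). At day 1 the count was 1 (0.998%), in the myotubes 1 (0.62%) and in the reserve cells 0 (0.251%). The members' count at day 0 was near the share of all genes. The MBD2 list was also far longer at day 0 than later. Of the 4 members, 3 had no promoter peak left at day 1, where 91.6% of all genes with a day 0 peak had none, 3 lacked it in myotubes (96.1%) and all 4 in reserve cells (98.2%). From myotubes to reserve cells the 1 member with a peak lost it (76.5%). No member gained an MBD2 promoter peak from day 0 to day 1 (0.0718% of genes without one), to myotubes (0.215%) or to reserve cells (0.0564%), nor from myotubes to reserve cells (0.105%).

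Fzd2 alone among the members had an MBD2 promoter peak after day 0. Its peak was 1322 bp long at day 0, with pileup 11 and fold enrichment 8.82, 346 bp long at day 1 and 731 bp long in myotubes. The summit lay 604 bp before the start at day 0, 384 bp before it at day 1 and 75 bp before it in myotubes. The myotube peak ran from 79 bp before to 651 bp after the start and did not overlap the day 1 peak. The later peaks rested on pileups of 6 and 10, with −log10 q of 2.78 and 2.43, and neither remained at a q of 0.001 or less. At day 0 the Fzd7 summit lay 623 bp before the start with pileup 8, and the Fzd5 summit 43 bp before it with pileup 6. All 3 receptors had H3K4me3 over the MBD2 peak, in H3K4me3 peaks of 3339 to 7946 bp. At Wnt7b the summit lay 1114 bp before the 5′ end with pileup 8, and no H3K4me3 peak overlapped it, since that gene's H3K4me3 lay downstream.

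Beyond the promoters, 11 members had another MBD2 peak inside the gene or within 10 kb of it at day 0 (25.5% of all genes had one). These were Wnt1, Wnt2b, Wnt3a, Wnt4, Wnt5b, Wnt6, Wnt7b, Wnt10a, Wnt10b, Fzd6 and Dkk3, with the same peak counted for Wnt1 and Wnt10b. After that peak, the highest fold enrichment was 11.8 for a 796 bp peak inside Dkk3, at chr7:112138331-112139126. The Wnt6 peak, with fold enrichment 8.36, lay 1455 bp downstream of the start within the gene's H3K4me3. In myotubes 1 member had such a peak (0.852% of genes), at Wnt9a, 2121 bp downstream of the start and under its H3K4me3. At day 1 and in reserve cells the count was 0, beside 1.35% and 0.287% of all genes.

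CpG content did not by itself separate marked from unmarked members. In the 1001 bp around the 5′ end, the observed over expected CpG ratio had a median of 0.792 in the 25 members marked in all libraries and 0.639 in the 12 marked in none. Over all protein-coding genes the same medians were 0.737 and 0.203, so the unmarked members were far richer in CpG than unmarked genes at large. A ratio of at least 0.6 was found in 29 members, of which 8 (27.6%) were unmarked in all libraries, against 9.13% of the 10083 such genes overall. These were Wnt2, Wnt3, Wnt3a, Wnt5a, Wnt7a, Wnt9b, Fzd10 and Sfrp5. At the other end, Wnt10a had the lowest ratio of any member marked throughout, 0.394, and a breadth of up to 5734 bp. No test was made, because the members were chosen with these libraries' results known.

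**Figure D4:**
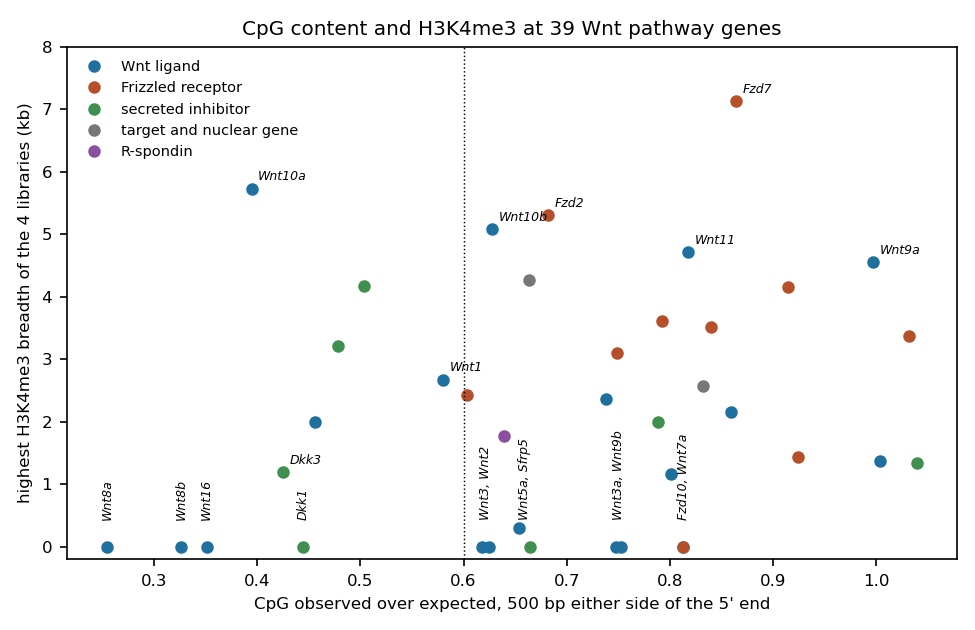
The highest H3K4me3 breadth of the 4 libraries (kb) against the observed over expected CpG ratio around the 5′ end for the 39 members, coloured by role, with a dotted line at 0.6. Members along the bottom have no promoter peak in any library, and 8 of those 12 lie right of the line.

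The other genes of the pathway were mostly marked as well. Of 85 further genes in 9 groups, from Wnt secretion to nuclear factors, 71 were marked at day 0 and 72 at day 1. In the myotubes 69 were marked, and in reserve cells 70. Over all protein-coding genes these shares were 56.5%, 56.2%, 57.3% and 54.8%. The mark was present throughout at 67 of the 85 (53.6% of all genes). All 16 genes of signal transduction and the destruction complex and all 15 nuclear factors were marked in every library, whereas 5 of 10 other secreted antagonists were marked at day 0. A call changed after day 0 at 7 genes, a count whose share over all genes was not computed. From day 0 to day 1, 2 gained and 1 lost the mark (1.72% of all unmarked and 1.86% of all marked genes). To myotubes 1 gained and 3 lost it (5.33% and 2.77%), and to reserve cells 1 gained and 2 lost it (1.38% and 4.12%). The receptor Ror2, which binds Wnt5a, had 1106 bp at day 0 and was unmarked in myotubes alone. Rspo2, a relative of Rspo3, had 955, 602, 389 and 0 bp and was unmarked in reserve cells. Ccn5 had 0, 1255, 0 and 3077 bp, marked at day 1 and in reserve cells. Kremen2 was marked at day 1 alone, the planar polarity genes Celsr1 at day 0 alone and Celsr3 in myotubes alone, and Prickle2 in all but myotubes.

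MBD2 lay at the promoters of 10 of these 85 genes at day 0, 2 at day 1, 2 in the myotubes and 0 in reserve cells. Over all protein-coding genes the share was 11.1% at day 0, so the count there was near the background. Tle4, a co-repressor that pairs with TCF proteins, had the highest fold enrichment, 22.9, at day 0 and was also called at day 1 and in myotubes. Gsk3a, a kinase of the destruction complex, followed with 16.2 and was also called at day 1. Lgr6, a receptor for R-spondins, had 10.04, and Gsk3b, Lgr4, Apc, Tcf7l2, Myc, Cd44 and Gpc1 had 3.59 to 8.38. Myc was the other gene called in myotubes.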

How the data were processed

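H3K4me3 and MBD2 CUT&RUN peak lists of 4 C2C12 states were used, 1 list per library (8 of 12 samples). Reads were handled with Trim Galore, Bowtie2, SAMtools and MACS2 on mm10, per the submitters' processing notes. The authors' lists give each peak's start, end and length in bp, its pileup (a signal, in fragments over the summit, per the file headers), a deposited fold enrichment (a ratio to local background), and 2 deposited significance columns, the −log10 p-value and the −log10 q-value, cut at q = 0.05. The names of the last columns were damaged, and they were read by their place in the MACS2 layout. The sources used here do not give versions, or whether the lists had passed further filtering by the authors.

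Promoter peaks (1 kb either side of any GENCODE M21 basic start, at least 1 bp), breadth (bp within 5 kb of the 5′ end), 2-fold breadth calls (at least 200 bp in both libraries) and CpG content were computed with Python 3.11.15, pandas 2.3.3 and pysam 0.24.0, and tested on simulated data. Every member is accounted for. Other pathway genes were named where a promoter call changed after day 0 or MBD2 lay at the promoter, and further genes were picked with their values known. The members and lists were chosen with earlier results of these data known. The lists carry no read totals, and 1 library per state limits the precision. Alternatives varied promoter width, overlap, peak threshold, list length, annotated starts, breadth window and fold.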

Additional observations from a re-analysis of the deposited data

Results flagged for a closer look

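At 2 members H3K4me3 breadth moved in opposite directions from day 0 in the myotube and the reserve cell libraries, by at least 2-fold between the fractions. Wnt10b was broader in myotubes (5087 bp) and narrower in reserve cells (1752 bp) than at day 0 (4414 bp), so that myotubes over reserve cells came to 2.90. The myotube breadth of Wnt10b included a separate 499 bp peak with pileup 11. Its peak at the start was 4588 bp long in myotubes against 4414 bp at day 0, so the rise from day 0 was small. Fzd6 went from 3470 bp at day 0 to 3522 bp in the myotubes and 1657 bp in reserve cells, and myotubes over reserve cells came to 2.13. The share of all genes that met both conditions was not computed. From myotubes to reserve cells alone, 6.21% of all genes tested were at least 2-fold narrower. Relative to the median of all genes, the ratios from myotubes to reserve cells were 0.39 for Wnt10b and 0.53 for Fzd6. Fzd6 thus fell short of 2-fold by that measure. With 1 library per fraction these differences were not tested, and the myotube step of Fzd6 was only 1.01 times day 0. Of 8 differentiated muscle markers, 8 were marked in the myotubes and 7 in reserve cells, and the reserve cell list was the shorter of the 2 (15920 against 26034 peaks). The part of either in these differences was not tested.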

How the results depend on the processing

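Of 12 alternative settings for 24 counts of members, 2 (the full annotation and breadth ratios scaled to the median of all genes) were chosen after seeing the data. The counts below are of members only, and the shares of all genes under these settings were not computed. Counting starts of protein-coding transcripts alone moved no count. The balance of gains and losses turned from myotubes to reserve cells with lists of equal length and from day 0 to myotubes with the stronger 50% of each list. That of broader and narrower members turned from day 0 to myotubes with the stronger 50%, and from day 0 to day 1 with lists of equal length and at a fold of 1.5. Comparisons are given as day 0 to day 1, day 0 to myotubes, day 0 to reserve cells, and myotubes to reserve cells. With 500 bp promoters, gains from day 0 to day 1 became 1 (Dkk3), and losses became 1 (Wnt1) from day 0 to day 1, 0 to myotubes and 1 to reserve cells. With 2 kb promoters 1 gain appeared from day 0 to day 1 (Wnt5a), as with the full annotation (1), and MBD2 in myotubes became 2 (Wnt9a and Fzd2). With an overlap of at least 100 bp, Wnt1 counted as 1 loss from day 0 to day 1. With q of 0.001 or less, gains were 1 from day 0 to day 1 (Dkk3) and 1 from myotubes to reserve cells (Rspo3), losses 1 from day 0 to day 1 (Sfrp2) and 1 from day 0 to reserve cells, broader members from day 0 to day 1 were 1, and MBD2 at day 1 and in myotubes fell to 0, so Fzd2 was then called at day 0 alone. With lists of equal length, losses were 1, 6, 1 and 0, gains from myotubes to reserve cells 5, broader members 0 from day 0 to day 1 and 0 from myotubes to reserve cells, narrower members from day 0 to myotubes 0, and MBD2 was at 0 members at day 0, day 1 and in myotubes. There Wnt1, Wnt7b, Sfrp1, Sfrp2, Dkk2 and Rspo3 had no myotube peak, since the myotube list loses its weaker peaks. With the stronger 50% of each list, marked members fell to 12 at day 0, 7 at day 1 and 9 in reserve cells, gains were 7 from day 0 to myotubes and 1 to reserve cells, losses 5, 0, 4 and 10, broader members 0, 1 (Wnt11), 0 and 0, narrower members 0 in all 4, and MBD2 0 at day 1 and in myotubes. At a fold of 1.5, broader members from day 0 to myotubes were 1 (Fzd1), and narrower members 4 from day 0 to day 1, 6 from day 0 to reserve cells and 7 from myotubes to reserve cells. With a 2 kb window, broader members from day 0 to day 1 were 1 and narrower members from myotubes to reserve cells 1, and with a 10 kb window the latter were 4. Scaled to the median ratio, narrower members were 1 from day 0 to reserve cells (Rspo3) and 1 from myotubes to reserve cells (Wnt10b), since Fzd6 and, from day 0, Wnt10b then fell short. The cause of the other changes was not tested. No paired analysis was possible because each state had 1 library per antibody. The peaks of Dkk3 and Sfrp2 and the myotube peaks of Wnt1, Sfrp1, Dkk2 and Rspo3 had pileups of 7 to 24. The part of depth was not tested.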

Other observations

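Among the other pathway genes, some of those whose breadths differed between libraries by at least 2-fold are named here. They were picked after their values were seen, and others such as Notum, Sp5, Pygo2, Ctnnbip1 and Daam2 are left out. Frzb, a Frizzled-like decoy related to the Sfrp genes, had 2199 bp at day 0, 1621 bp at day 1, 650 bp in the myotubes and 462 bp in reserve cells. Wif1, a secreted Wnt-binding inhibitor, had 1566, 1554, 2597 and 403 bp in the same order, so reserve cells were lowest. Frzb was narrow in both day 5 libraries, as were Dkk2 and Rspo3, and Wif1 in reserve cells alone. Porcn, the enzyme that attaches the lipid to Wnt proteins, had 1759, 1859, 5754 and 1604 bp, and myotubes stood alone.

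Lgr6, the R-spondin receptor, had 3379, 2060, 4772 and 1397 bp, with myotubes and day 0 high and day 1 and reserve cells low, in the same order as Fzd6. Nkd2, which restrains Dishevelled, had 658, 636, 471 and 2029 bp and was widest in reserve cells, as was Sfrp2. Ccnd1, the cyclin often listed as a Wnt target, had 8282, 5988, 2114 and 4767 bp and was narrowest in myotubes. Of the 67 pathway genes tested from myotubes to reserve cells, 7 were at least 2-fold narrower and 2 at least 2-fold broader, beside 6.21% and 1.12% of all genes tested. From day 0 to myotubes, 4 of 69 were narrower and 2 broader (4.36% and 2.52% of all genes). To reserve cells 5 of 68 were narrower and 1 broader (4.56% and 0.317%), and to day 1 there were 0 of 70 either way (1.49% and 0.447%). These are single-library values with no replicate check.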
